A study of Brassica juncea with 4 samples.

Results

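miR397, miR398 and miR408 are 3 families of plant microRNAs (miRNAs) that are linked to copper supply. They were followed here in floral buds of cytoplasmic male sterile (CMS) and maintainer fertile (MF) Brassica juncea, an oilseed and vegetable mustard. Of the 288 entries in the deposited miRNA table, 6 belonged by name to miR397, miR398 or miR408, either arm included, and these held 5 of the 248 distinct sequences. They were ath-miR397b_R+1_1ss13TG, ath-miR398a, ath-miR398b and ath-miR398c (which have the same sequence), ath-miR408 and ath-MIR408-p5. The prefix ath marks the Arabidopsis thaliana hairpin and is left out below where the name is repeated. The name MIR408-p5 stands for reads of the 5′ arm of the hairpin whose 3′ arm gives miR408. The same families were sought in the target tables of the degradome libraries, which sequence the 5′ ends of cut mRNAs.

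The CMS line carries the cytoplasm of another species, Brassica rapa, with a nucleus from B. juncea brought in over many backcrosses, and the self-fertile MF line maintains it. All floral buds of an inflorescence were taken from plants of both lines that flowered under long days, and RNA of several plants was pooled. Each line had 1 small RNA library and 1 degradome library, so the tests below compare libraries and not lines. Without replicates, the intervals cover counting error only. They may be too narrow even for that, since PCR reads without molecular identifiers are not independent molecules. Because the buds were of mixed stages and cell types, fewer cells of a type and less RNA per cell cannot be told apart.

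In Arabidopsis, the transcription factor SPL7 raises transcription of genes of the MIR397, MIR398 and MIR408 families when copper is scarce, though not necessarily of every member. The miRNAs guide cleavage of mRNAs for copper proteins that the cell can spare: laccases (miR397 and miR408), the copper/zinc superoxide dismutases CSD1 and CSD2 with their copper chaperone CCS1 (miR398), and small blue copper proteins such as plantacyanin (miR408). Copper is then left for plastocyanin in the chloroplast and for cytochrome c oxidase in the mitochondrion.

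The sequences of all 5 members are shown because they decide which reads can be told apart. They are written 5′ to 3′ with T for U, as deposited, and bases 2 to 8, the seed, are in capitals.
miR397b_R+1_1ss13TG: tCATTGAGtgcagcgttgatgt
miR398a: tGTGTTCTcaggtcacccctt
miR398b and miR398c: tGTGTTCTcaggtcacccctg
miR408: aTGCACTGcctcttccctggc
MIR408-p5: aCAGGGAAcaagcagagcatg

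The 5 sequences had 4 seeds, since only miR398a and miR398b/c shared one, and no sequence of another family in the table had any of these seeds. Both sequences of the MIR408 hairpin began with A, as did 46 (18.5%) of the 248 distinct sequences, and the miR397 and miR398 sequences began with T, as did 102 (41.1%). 4 of the 5 members were 21 bases long, against 103 (41.5%) of all distinct sequences, and the miR397 entry had 22 bases. The G+C content was highest in miR408 at 61.9% and lowest in the miR397 entry at 45.5%, with a median of 50.0% over all distinct sequences.

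All positions are those of the Arabidopsis hairpins to which the reads were matched, in the TAIR10 assembly, and not positions in B. juncea. MIR408 lies at chr2:19319813-19320031 on the plus strand, with the MIR408-p5 reads at chr2:19319866-19319886 and the miR408 reads at chr2:19319933-19319953. MIR398a lies at chr2:1040894-1041064 on the plus strand, with its mature reads at chr2:1041012-1041032. MIR398b at chr5:4691013-4691145 and MIR398c at chr5:4694694-4694808, both on the plus strand, are 3548 bases apart, and their mature reads were placed at chr5:4691107-4691127 and chr5:4694778-4694798. MIR397b lies at chr4:7878643-7878768 on the minus strand. Each interval is the miRNA gene's hairpin, and no exon, intron or UTR annotation was used here. The miR398 and miR408 reads came from 3′ arms, the miR397 and MIR408-p5 reads from 5′ arms, and no entry gave the other arm of a MIR397 or MIR398 hairpin.

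The stretch of the MIR408 hairpin that spans both of its products is shown because it is the only member hairpin with reads from both arms. It covers chr2:19319866-19319953 on the plus strand, with MIR408-p5 at the start and miR408 at the end in capitals.
MIR408 stem: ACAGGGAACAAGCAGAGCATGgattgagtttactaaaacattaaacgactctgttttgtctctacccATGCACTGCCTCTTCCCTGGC
In the deposited fold, 15 of the 21 bases of MIR408-p5 paired with bases of miR408, and 46 bases lay between both products.

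By the deposited normalized values, miR408 and its 5′ partner were higher in the CMS library than in the MF library, though miR408 did not pass under every scaling compared below. Both miR398 sequences had lower normalized values in CMS that did not pass the test, and miR397 was close to absent from both libraries. The deposited normalized value is the read count multiplied by 1 factor per library, 1.12 in CMS and 0.896 in MF, which is not explained in the sources used here. The Audic-Claverie probability compares 1 library with another and is that of exactly the CMS value given the MF value, without the tail. An entry was called different when that probability was under 0.01 divided by the 288 entries (a division chosen here). In addition, a two-sided Fisher's exact test and a chi-squared test on 2 × 2 tables of the normalized values both had to give p under 0.01. Of the 288 entries, 47 (16.3%) were called, 22 (7.64%) as higher in CMS and 25 (8.68%) as lower in CMS. Of the 6 copper entries, 2 were called, both as higher in CMS. Over distinct sequences, 13 (5.24%) of 248 were called higher, including 2 of the 5 members, and 22 (8.87%) lower, including 0 of the members. With 5 members, these counts say little beyond the single values.

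**Figure D1:**
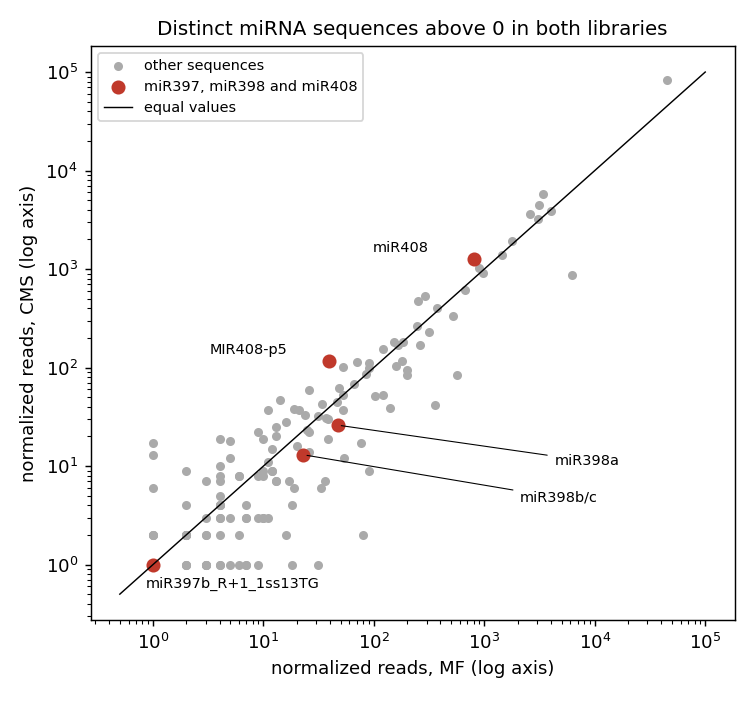
Normalized reads of each distinct miRNA sequence in the CMS library (vertical, log axis) against the MF library (horizontal, log axis), for the 152 sequences above 0 in both. miR408 and MIR408-p5 lie above the line of equal values, both miR398 sequences lie below it, and the miR397 entry sits at 1 in each library.

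miR408, which guides cleavage of mRNAs for plantacyanin and several laccases in Arabidopsis, was by far the most abundant member. ath-miR408 had 1140 reads in the CMS library, against 899 reads in the MF library, or normalized values of 1272 in CMS and 805 in MF. It was the 9th most abundant of the 248 distinct sequences in CMS and the 12th in MF. The ratio of CMS over MF was 1.58-fold (log2 0.66, 95% interval 0.53 to 0.79), with an Audic-Claverie probability of 9.0e-26 and a Fisher's exact p of 9.3e-25. Both were computed on the normalized values, so they depend on the library factors and cover counting error alone. In both libraries together, 86 sequences found in each of them had 20 reads or more, and 19 of these had a larger log2 ratio than miR408.

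ath-MIR408-p5, the strand that pairs with miR408 in the hairpin and is usually the less stable one, had 105 reads in CMS and 44 reads in MF. Its normalized values were 117 in CMS and 39 in MF, a 2.97-fold ratio (log2 1.57, interval 1.05 to 2.11; Fisher's exact p = 3.0e-10). It ranked 25th in CMS and 50th in MF, and 4 of the 86 sequences had a larger log2 ratio. The intervals of miR408 and MIR408-p5 did not overlap.

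Both products are counted within the same library, so their ratio to each other does not depend on how the libraries are scaled. They match 1 Arabidopsis hairpin. The B. juncea loci that gave the reads, of which there may be several, were not determined. MIR408-p5 made up 8.43% of the 1245 MIR408 reads in CMS (exact Clopper-Pearson interval 6.95 to 10.1%), against 4.67% of the 943 reads in MF (3.41 to 6.21%). The odds of a 5′ arm read were 1.88 times higher in CMS (interval 1.30 to 2.77). A two-sided Fisher's exact test on the read counts was run on 46 pairs of arms with at least 20 reads. The share of the less abundant arm was higher in CMS at an adjusted p under 0.05 in 6 pairs (13%) and lower in CMS in 3 pairs (6.52%). MIR408 was among these (Fisher's exact p = 0.00057, Benjamini-Hochberg adjusted p = 0.0052) and had the fifth smallest p. The 46 pairs used 34 sequences of the more abundant arm, since several Arabidopsis hairpins share a mature sequence, whereas miR408 matches an Arabidopsis hairpin of its own.

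**Figure D2:**
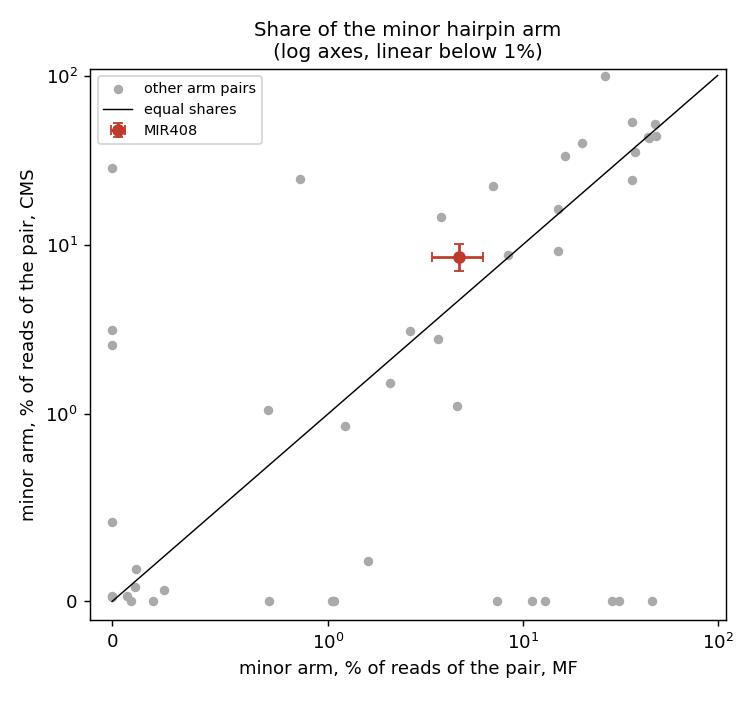
Share of the less abundant arm among the reads of a hairpin's pair of arms, in percent, in CMS (vertical) against MF (horizontal), with log axes that are linear below 1%; the bars of MIR408 are exact binomial intervals. MIR408, at 8.43% in CMS and 4.67% in MF, lies above the line of equal shares, as do other arm pairs, while further pairs lie below it.

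miR398, which guides cleavage of mRNAs for CSD1, CSD2 and CCS1 in Arabidopsis, was much less abundant than miR408. ath-miR398a had 23 reads in CMS and 52 reads in MF, with normalized values of 26 in CMS and 47 in MF. miR398b/c had 12 reads in CMS and 26 reads in MF, with normalized values of 13 in CMS and 23 in MF. Neither passed the test. The log2 ratio of miR398a was -0.86 (interval -1.64 to -0.13; Audic-Claverie probability 0.0023 against a limit of 3.5e-05, Fisher's exact p = 0.019), and that of miR398b/c was -0.80 (interval -1.92 to 0.24; Fisher's exact p = 0.13). Both had a log2 ratio above 0 when the libraries were scaled by mappable or raw reads.

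The 2 miR398 sequences differ in their last base only, which is in capitals here because it alone separates their reads.
miR398a: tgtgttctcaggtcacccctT
miR398b and miR398c: tgtgttctcaggtcacccctG
The change is T21G, with miR398a first and positions counted from the 5′ end. The miR398a reads were 2 times those of miR398b/c in MF and 1.92 times in CMS, which is a ratio of 2 in both libraries within rounding to whole reads. Among 49 pairs of distinct sequences of 1 family with at least 10 reads in each library, this was the only pair at a whole-number ratio in both. Small counts meet such a ratio within rounding more easily than large ones, and the miR398 counts were small. Whether the counts of the 2 sequences are independent was not tested, so their sum, 35 reads in CMS and 78 in MF (log2 -0.84, interval -1.46 to -0.25), may count reads more than once. MIR398b and MIR398c give the same mature sequence and cannot be told apart.

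miR397, which guides cleavage of laccase mRNAs in Arabidopsis, had 1 read in CMS and 2 reads in MF, with a normalized value of 1 in each. The log2 ratio of -0.68 had an interval of -6.57 to 3.58, so no difference was detectable at this depth. The entry is named as miR397b with 1 extra base at the 3′ end and 1 substitution, and its sequence is set beside both miRBase forms because the name hides a closer match. Position 13 is in capitals.
miR397b_R+1_1ss13TG: tcattgagtgcaGcgttgatgt
miR397a: tcattgagtgcaGcgttgatg
miR397b: tcattgagtgcaTcgttgatg
Against miR397b the entry has the change T13G. Against miR397a it has 0 substitutions over the shared bases, and its whole length is found in the deposited MIR397a hairpin, starting at base 11, and not in the MIR397b hairpin. The deposited list of hairpins nevertheless marks MIR397a as not located in either library, and both mature forms as not detected.

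**Figure D3:**
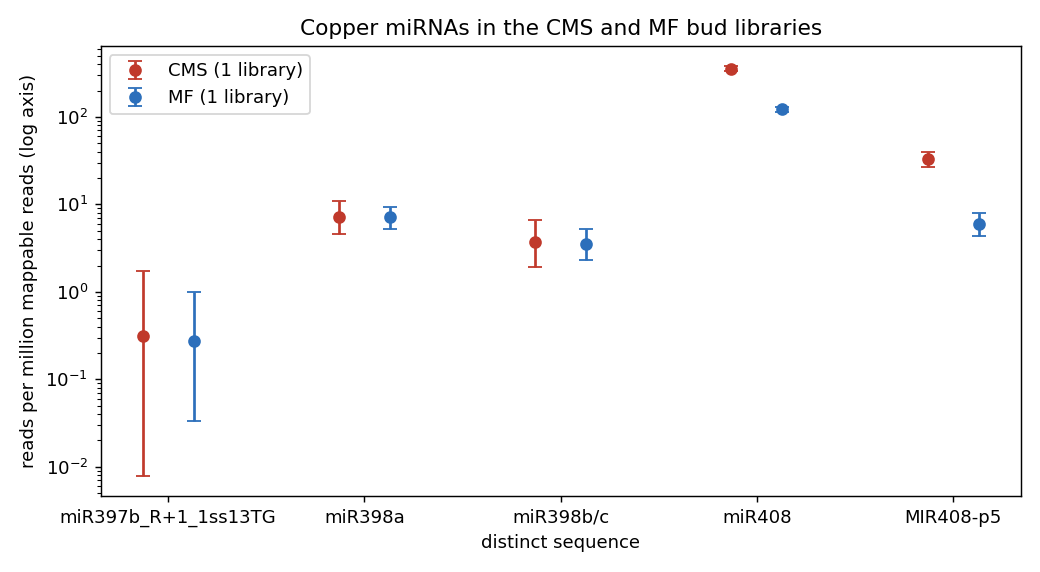
Reads per 1000000 mappable reads (log axis) of each member in the CMS and MF libraries, 1 library each, with exact Poisson intervals. miR408, at 357 in CMS and 123 in MF, and MIR408-p5, at 32.9 in CMS and 6.001 in MF, have intervals that do not overlap, whereas the intervals of the miR398 and miR397 sequences do.

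Per 1000000 mappable reads, that is, reads left after the study's removal of adapters and junk, miR408 reached 357 (exact Poisson interval 337 to 378) in CMS and 123 (115 to 131) in MF. MIR408-p5 reached 32.9 (26.9 to 39.8) in CMS and 6.001 (4.36 to 8.06) in MF. miR398a stood at 7.20 (4.57 to 10.8) in CMS and 7.09 (5.30 to 9.30) in MF, and miR398b/c at 3.76 in CMS and 3.55 in MF. On this scale the miR398 sequences differed by less than their counting intervals and miR408 and MIR408-p5 were still higher in CMS.

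The scale matters because the libraries differed in more than depth. The CMS library had 3339182 raw and 3192676 mappable reads, against 11845753 raw and 7331757 mappable reads in MF. Listed miRNAs took 3.29% of the mappable reads in CMS and 1.24% in MF, and miR319a/b alone took 70.5% of the miRNA reads in CMS and 55.7% in MF. The part of these differences in the results was not tested. A change of scaling moves every log2 ratio by the same amount: relative to the study's factors by 0.88 with mappable reads, by 1.51 with raw reads, by -0.52 with the total of miRNA reads, by 0.06 with that total less miR319a/b, and by 0.03 with the median ratio of 86 sequences. Over all entries the calls split into 53 higher and 9 lower in CMS with mappable reads, 71 higher and 7 lower with raw reads, and 5 higher and 41 lower with the total of miRNA reads, against 22 and 25 with the study's factors.

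miR408 was called higher in CMS under 5 of the 6 scalings. The exception was the total of miRNA reads, where its log2 ratio was 0.13 (interval 0.01 to 0.26) and it made up 1.09% of the miRNA reads in CMS and 0.989% in MF. MIR408-p5 was called higher in CMS under all 6 scalings, with log2 ratios between 1.05 and 3.08. The log2 ratio of miR398a ran between -1.39, where it was called lower in CMS, and 0.65. That of miR398b/c ran between -1.32 and 0.71 and passed under none of the 6 scalings. Relative to the median ratio of the 86 sequences, the log2 ratios were 0.69 for miR408, 1.60 for MIR408-p5, -0.83 for miR398a and -0.77 for miR398b/c.

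**Figure D4:**
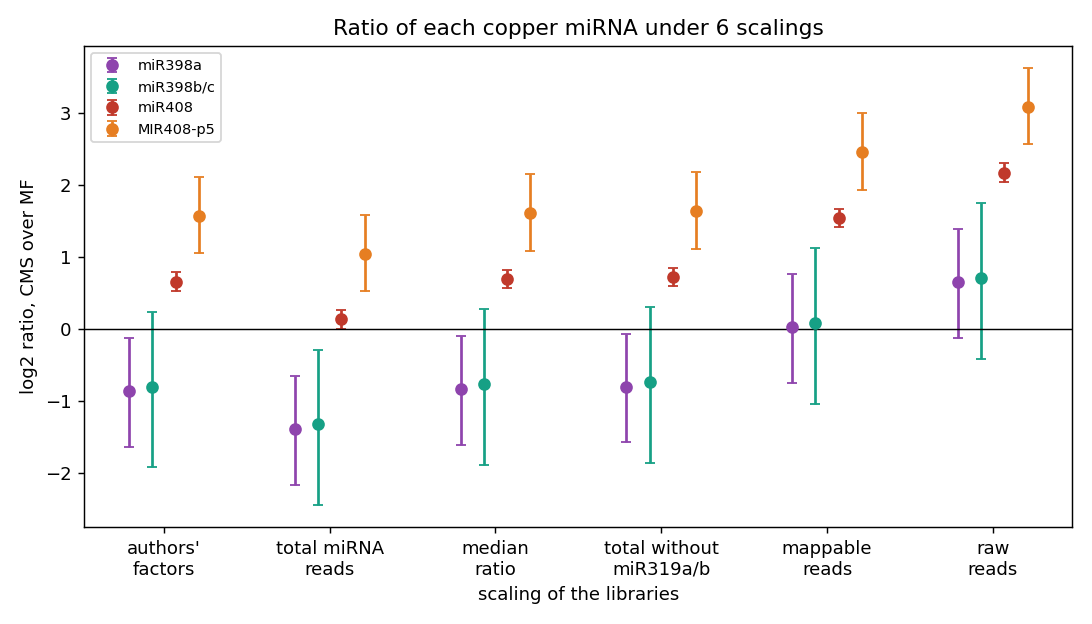
Log2 ratio of CMS over MF (vertical) of 4 members under 6 ways of scaling the libraries (horizontal), with 95% exact conditional binomial intervals. MIR408-p5 lies above 0 throughout, miR408 is at 0.13 with the total of miRNA reads, and both miR398 sequences lie below 0 under 4 scalings and above 0 with mappable and raw reads, while the spacing between members stays the same.

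Ratios between members are free of the scaling, and they were set up after the values had been seen, so they are given without a test. There were 49.6 reads of miR408 for each read of miR398a in CMS, against 17.3 in MF, an odds ratio of 2.87 (interval 1.71 to 4.95). With miR398b/c in place of miR398a there were 95 in CMS and 34.6 in MF, an odds ratio of 2.75 (1.33 to 6.01). MIR408-p5 had 4.57 reads for each miR398a read in CMS and 0.846 in MF, an odds ratio of 5.35 (2.83 to 10.4). In these counts MIR408 products were higher relative to miR398 in the CMS library than in the MF library, whichever scaling is used. The contrasts were picked from the values, so their intervals only describe the counts. Results with both miR398 sequences may also not be independent.

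The 3 sequences outside these families, with at least 20 reads, whose log2 ratios were nearest to the 0.66 of miR408 were miR172e, MIR166b-p5 and miR159a, over 1 library a line. miR172e, of a family that targets AP2-type floral regulators, had 18 reads in CMS and 14 in MF (log2 0.68). MIR166b-p5, the 5′ arm product of a MIR166 hairpin, had 103 reads in CMS and 78 in MF (log2 0.72). miR159a, which targets GAMYB-like genes of the anther, had 5143 reads in CMS and 3766 in MF (log2 0.77), and of these 3 it alone was called.

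Other miRNAs tied to nutrient supply, whether or not to copper, were set beside miR397, miR398 and miR408. Of miR395, miR399, miR778, miR827, miR857 and miR2111, the table held 11 distinct sequences, all of miR395, miR399 and miR2111, of which 0 were called higher and 1 lower in CMS. That one was miR395a, which acts on sulphate assimilation genes, with 7 reads in CMS and 40 reads in MF (log2 -2.20, interval -3.60 to -1.02). The phosphate starvation miRNAs lay on both sides and did not pass. miR399f had 1 read in CMS and 11 reads in MF (log2 -3.14, interval -8.57 to -0.36), and miR399d had 0 reads in CMS and 4 reads in MF. miR2111a had 7 reads in CMS and 3 reads in MF, and miR399b had 7 reads in CMS and 5 reads in MF. The median log2 ratio was -0.27 over the 7 of these with reads in both libraries and -0.05 over the 153 distinct sequences with reads in both. The 5 copper members lay on both sides of 0, between -0.86 for miR398a and 1.57 for MIR408-p5, and their median of -0.68 is the value of the miR397 entry, which had 1 read in CMS and 2 in MF, so it gives no direction for the set.

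No cleavage site was listed for any copper miRNA in either line. The target tables, made with CleaveLand on Arabidopsis cDNA, paired each of 124 small RNAs with the transcripts it was called to cut, in 768 entries in CMS and, also for 124 small RNAs, 838 entries in MF. Family members and transcripts of a gene repeat a site, and joined by gene and position these were 369 sites in CMS and 493 in MF, from 4967302 cDNA-mapped degradome reads in CMS and 7717843 in MF. In these, 0 entries in CMS and 0 in MF named miR397, miR398 or miR408, so no cleavage reads could be compared. None of 12 genes known from Arabidopsis as targets was listed under any small RNA. For miR397 these were the laccases LAC2 (AT2G29130), LAC4 (AT2G38080) and LAC17 (AT5G60020). For miR398 they were CSD1 (AT1G08830), CSD2 (AT2G28190), CCS1 (AT1G12520) and COX5b-1 (AT3G15640), a subunit of cytochrome c oxidase. For miR408 they were plantacyanin ARPN (AT2G02850), the uclacyanin UCC2 (AT2G44790) and the laccases LAC3 (AT2G30210), LAC12 (AT5G05390) and LAC13 (AT5G07130).

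An unlisted site says only that it is not in the tables used here, which list sites that passed the study's filter, and the listed alignment scores end at 4. Of 88 distinct sequences with at least 20 reads, 38 (43.2%) had a listed site in either line, and of the 10 sequences with at least as many reads as miR408, 8 (80%) had one. The other sequence among these 10 without a site was miR894_R+1, with 1740 reads in CMS and 1994 in MF. By family, 26 of 58 numbered families in the table had no listed site, among them miR162 and miR390 besides the 3 copper families.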

How the data were processed

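Small RNA and degradome libraries from pooled floral buds were sequenced, 1 of each per line. The authors matched small RNAs to miRBase 18 hairpins on TAIR10 and deposited estimated counts per miRNA, rounded to whole numbers, and a normalized score, the count times a library factor. For 31 CMS and 40 MF entries the score is not the rounded product (tolerance 0.5), so counts were not all whole and were used as rounded, where whole counts had been assumed. Degradome files hold the authors' site read counts, CleaveLand p-values and signal per transcript hit, and the authors' fold column was not used.

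Calls used the study's 3 tests and limit of 0.01, on normalized values. The total of 1000000 and the division of the Audic-Claverie limit by 288 were chosen here; without the division 64 entries were called, against 47. Ratios used counts times factors, with exact conditional binomial intervals (scipy 1.17.1). Both were run on simulated Poisson counts with known ratios and known library factors. That setting has no PCR copies and no spread between libraries of a line, so it cannot show how either affects the calls and intervals. Entries named are all those of miR397, miR398 and miR408, known targets, other nutrient families and the 3 ratios nearest miR408. Members and lists were chosen with earlier results of these data known.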

Additional observations from a re-analysis of the deposited data

How the results depend on the processing

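With 1 library per line and assay, no replicate could be left out. For the same reason no paired analysis was possible. Scaling by raw reads called 78 entries, against 47 with the study's factors. With mappable reads and with raw reads the log2 ratio of CMS over MF turned positive for the miR397 entry and its family sum (0.20 and 0.83), for miR398a (0.023 and 0.65), for miR398b/c (0.084 and 0.71) and for the miR398 sum (0.043 and 0.67). With the total of miRNA reads, miR398a (-1.39) and the miR398 sum (-1.36) passed as lower in CMS, though that sum may count reads more than once. Under the same scaling, miR408 (0.13) and the MIR408 sum (0.19) no longer passed as higher, and over all entries 5 were called higher and 41 lower. A change of scaling shifts all ratios alike. MIR408-p5 passed as higher in CMS under every scaling, test and filter tried. Normalized values multiply both MIR408 arms alike, so they could change the arm share only by rounding. Target genes of the copper families numbered 0 under every filter on category, p, transcripts and reads, and the alternatives for cleavage reads were not run, since no site was listed. The depth of the miR397 entry, 1 read in CMS and 2 in MF, allows no comparison.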
